A study of Mus musculus with 9 samples.

Results

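The expression of 8 genes of the megakaryocyte lineage and its product, the platelet, was followed in G1E cells: Pf4, Ppbp, Nrgn, Itga2b, Itgb3, Gp1bb, Vwf and Fli1. They were chosen by name as lineage genes, and all 8 were found among the 27999 rows of the count table. Of these, 6 passed the filter on low counts and were tested, while Gp1bb and Vwf had no count in any library. The 9 libraries formed 3 groups of 3, which the series describes as biological replicates. G1E is a mouse line of erythroid progenitors that lacks functional Gata1, so functional mouse Gata1 is missing in every group. All cells were grown with fetal calf serum, stem cell factor and erythropoietin and were spin-infected with virus made in 293T cells. The virus carried the empty HMD vector, human wildtype GATA1 or a human GATA1 mutant. The labels name neither the mutation nor the time after infection, and every group is the same single line.

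GATA1 is a transcription factor of both the red cell and the megakaryocyte lineages, which arise from a shared progenitor. In megakaryocytes it acts with FLI1, an ETS family factor, on genes for granule proteins and surface receptors. Platelets release chemokines such as PF4 from their alpha granules, bind fibrinogen through the integrin pair encoded by Itga2b and Itgb3, and bind von Willebrand factor through the glycoprotein Ib complex.

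Library totals ran from 11364358 to 17289307 counts. Human GATA1 stood at 598 to 706 CPM (read counts scaled for depth) in the mutant libraries and at 715 to 921 CPM in the wildtype libraries, and it had 0, 2 and 0 counts in empty vector replicates 1, 2 and 3. Mutant replicates 1 and 2 were unusually close: their chi-square per gene was 2.21, where 1 is pure counting noise, against 15.0 to 55.5 for the other within-group pairs. They differed by more than counting noise and were kept as 2 libraries. The 9 G1E identity genes were present in sum at 2919 to 4132 CPM across all libraries. The progenitor marker Cd34 had too few counts over the groups to be tested, and none in the mutant group. Of the 8 tested, 4 were higher with the wildtype than with the empty vector (Epor, Tfrc, Klf1 and Tal1). Kit, Gata2 and Myb were lower, beside 11.4% of all tested genes higher and 11.9% lower. Markers of mature red cells summed to 335 to 376 CPM in empty vector libraries, 1433 to 1570 CPM in mutant libraries and 17901 to 28836 CPM in wildtype libraries.

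Pf4 and Ppbp, the chemokine genes of the set, lie next to each other on chromosome 5 with 2371 bases between them. Their promoters are shown because the genes are neighbours whose values are set side by side below. The sequences are the 250 bases before each RefSeq start, on the GRCm38.p6 build, plus strand, at chr5:90772185-90772434 for Pf4 and chr5:90768268-90768517 for Ppbp. Capitals mark matches to the searched words on either strand.
Pf4: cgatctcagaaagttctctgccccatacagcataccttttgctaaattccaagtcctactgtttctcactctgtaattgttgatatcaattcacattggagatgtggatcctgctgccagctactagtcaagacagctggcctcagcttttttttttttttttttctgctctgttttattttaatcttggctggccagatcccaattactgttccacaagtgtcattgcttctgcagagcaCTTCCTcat
Ppbp: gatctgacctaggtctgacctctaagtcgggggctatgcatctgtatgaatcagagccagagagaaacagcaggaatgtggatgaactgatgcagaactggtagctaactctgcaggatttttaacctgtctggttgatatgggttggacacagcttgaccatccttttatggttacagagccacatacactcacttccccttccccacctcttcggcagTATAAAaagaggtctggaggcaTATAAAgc
For GATA factors the searched words were AGATAA, or with a final G, AGATAG, besides TGATAA, or with a final G, TGATAG. For ETS factors they were AGGAAG, or with a C in front instead, CGGAAG. For the TATA box the word was TATAAA. Both strands were searched, and no match overlapped another in these windows. The Pf4 window held 1 ETS word, as its reverse complement, from 9 to 4 bases before the start. The Ppbp window held 2 TATAAA words, the farther one from 30 to 25 bases before the start. Neither window held a GATA word. Over 32851 RefSeq windows of the same length, 26.5% held a GATA word, 39.2% an ETS word and 12.4% a TATAAA word. A match is a stretch of letters and not a shown binding site. Of the 8 genes, 5 had a RefSeq entry in the set used, and Itgb3, Vwf and Fli1 had none. The windows of Itga2b and Nrgn lie mostly inside the genes as GENCODE draws them, by 239 and 159 of the 250 bases, and are not printed. The Itga2b window held 2 ETS words, both in the part inside the gene, and the Nrgn window held no match. The Gp1bb window, also not printed, held 1 GATA word and 1 ETS word.

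All 6 tested genes were lower with wildtype GATA1 than with the empty vector. The falls ran from 1.86-fold for Itga2b, the alpha chain of the fibrinogen receptor, to 4.29-fold for the chemokine gene Ppbp. In edgeR's quasi-likelihood test, 6 of 6 were lower at an adjusted p under 0.05, where 11.9% of the 9978 tested genes (1186) were called lower. These 1186 became 655 without wildtype replicate 1 and 706 without empty vector replicate 2, and the 6 became 5 in both cases. The libraries of these groups did not overlap for any of the 6, as for 17.3% of tested genes in this direction. The 6 genes had a median log2 fold change of −1.37 and all tested genes one of −0.04. In these bulk libraries, fewer cells that make an RNA and less of it per cell cannot be told apart.

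With the mutant, 5 of the 6 genes had means between those of the other groups, and Ppbp had its highest mean. Against the empty vector, 0 of 6 were called in either direction in edgeR, where 0.0601% of tested genes were called lower and 0.210% higher. At an unadjusted p under 0.05, 3 of the 6 were lower (Pf4, Nrgn and Itgb3), beside 7.87% of all tested genes, and DESeq2 called 1 of them lower, which was Pf4, beside 0.391%. The mutant libraries lay wholly below those of the empty vector for 3 genes (Pf4, Nrgn and Itga2b), beside 6.84% of tested genes, and wholly above for Ppbp, beside 8.19%. Against the wildtype, 5 of 6 were higher with the mutant (13.2% of tested genes) and did not overlap it (23.3%), and Fli1 was not called. The 5 became 2 without mutant replicate 1 or wildtype replicate 1, and 3 without mutant replicates 2 or 3 or with mutant replicates 1 and 2 summed. The 1313 genes behind the 13.2% became 693 without mutant replicate 1, 791 without mutant replicate 2, 758 without wildtype replicate 1, 869 without wildtype replicate 2 and 779 with mutant replicates 1 and 2 summed. These 3 comparisons share libraries in pairs and are not independent of each other.

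**Figure D1:**
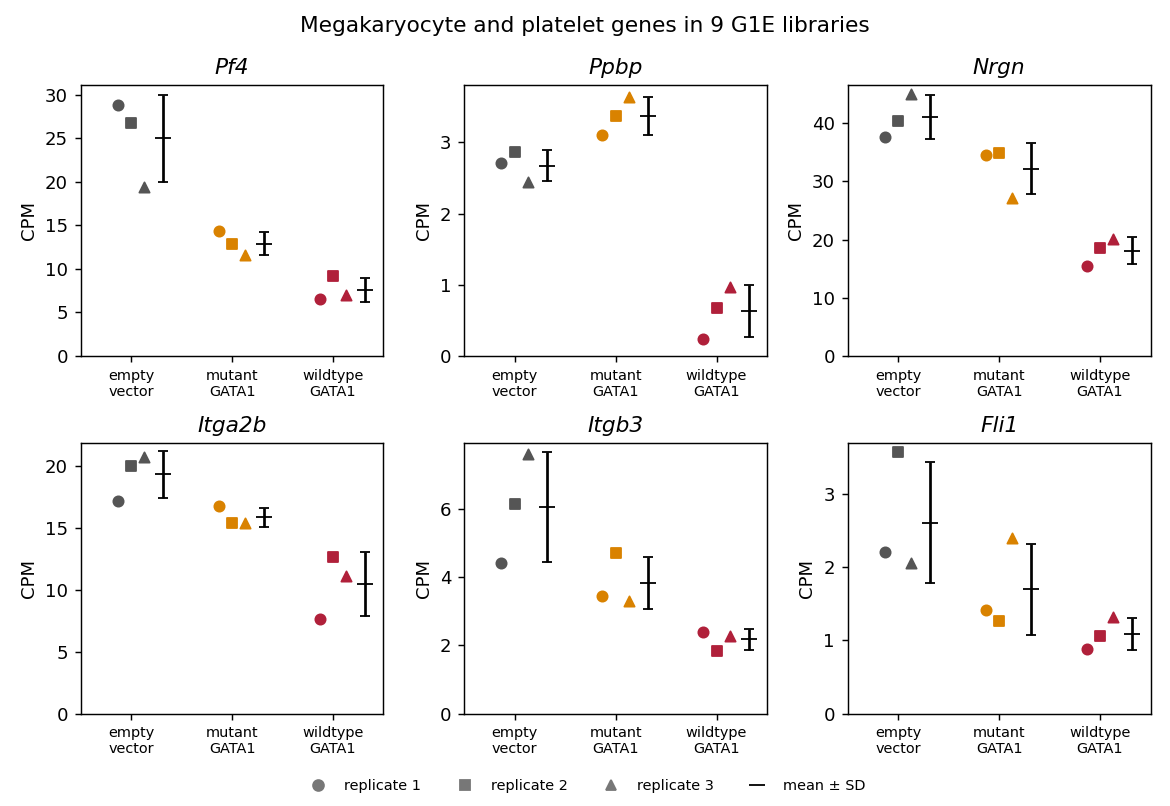
CPM of the 6 tested genes in each of the 9 libraries, by group; markers show the replicate, and the black bars the group mean and SD (n = 3). The wildtype libraries lie below all empty vector libraries for every gene, and the mutant libraries of Ppbp lie above them.

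Pf4 encodes platelet factor 4, a chemokine of the alpha granule (GRCm38, chromosome 5, 90772435 to 90773383, plus strand). Pf4 stood at 28.8, 26.7 and 19.4 CPM in empty vector replicates 1, 2 and 3, at 14.3, 12.8 and 11.6 CPM in the mutant replicates and at 6.48, 9.15 and 7.03 CPM in the wildtype replicates. No 2 groups overlapped, and the mutant libraries lay between the others. The wildtype mean was 7.55 ± 1.41 CPM against 25.0 ± 4.96 CPM with the empty vector (SD, n = 3), a log2 fold change of −1.73 ± 0.20 (SE) with an adjusted p of 4.04e-05 in edgeR.

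With the mutant, Pf4 had a mean of 12.9 ± 1.37 CPM (SD, n = 3), and its log2 fold change against the empty vector was −0.95 ± 0.19. This did not pass in edgeR (adjusted p 0.0666), but it passed in DESeq2 at an adjusted p of 0.00103. It also passed without empty vector replicate 3, the lowest of its group, at an adjusted p of 0.0159, over alternatives that ran from 0.000458 to 0.346. Pf4 was higher with the mutant than with the wildtype by 0.78 ± 0.20 on the log2 scale (edgeR adjusted p 0.0129). That call was lost without mutant replicate 1 (adjusted p 0.0590) or wildtype replicate 1 (0.0626), with a range of 0.00119 to 0.0626 over the alternatives.

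Ppbp encodes pro-platelet basic protein, the precursor of several platelet chemokine forms (chromosome 5, 90768518 to 90770063, plus strand). Its counts were few: 37, 41 and 38 in empty vector replicates 1, 2 and 3, then 55, 56 and 56 with the mutant and 3, 7 and 11 with the wildtype. In CPM these were 2.71, 2.87 and 2.45 with the empty vector, 3.11, 3.38 and 3.64 with the mutant and 0.240, 0.674 and 0.966 with the wildtype. All 3 wildtype libraries were low, and all 3 mutant libraries were above the highest empty vector library.

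The fall of Ppbp with the wildtype was the largest of the 6 genes, at −2.10 ± 0.36 on the log2 scale (SE), with an adjusted p of 0.000980 in edgeR. The mutant mean of 3.37 ± 0.264 CPM stood beside 2.68 ± 0.213 CPM with the empty vector (SD, n = 3). The log2 difference of 0.33 ± 0.27 was not called (edgeR adjusted p 0.583), and its 95% interval ran from −0.33 to 0.996. Ppbp was 5.41-fold higher with the mutant than with the wildtype, a log2 difference of 2.43 ± 0.35 with an adjusted p of 0.000293. Both Ppbp calls held in each alternative that tested the gene.

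The balance of the neighbouring chemokine genes was also compared, which was chosen after the values were seen. Pf4 had 10.6, 9.32 and 7.92 counts per Ppbp count in empty vector replicates 1, 2 and 3. The mutant replicates had 4.60, 3.80 and 3.18, all below the empty vector and the wildtype. The wildtype replicates had 27.0, 13.6 and 7.27, a wide spread that rests on the 3 to 11 Ppbp counts of those libraries and that overlaps the empty vector. The log2 ratio differed by −1.27 for mutant against empty vector and by −1.86 for mutant against wildtype. The exact two-sided permutation test gave p = 0.1 for each, the smallest that 3 against 3 libraries allow, and p = 0.5 for wildtype against empty vector; adjusted over the 3 comparisons these were 0.15, 0.15 and 0.5.

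**Figure D2:**
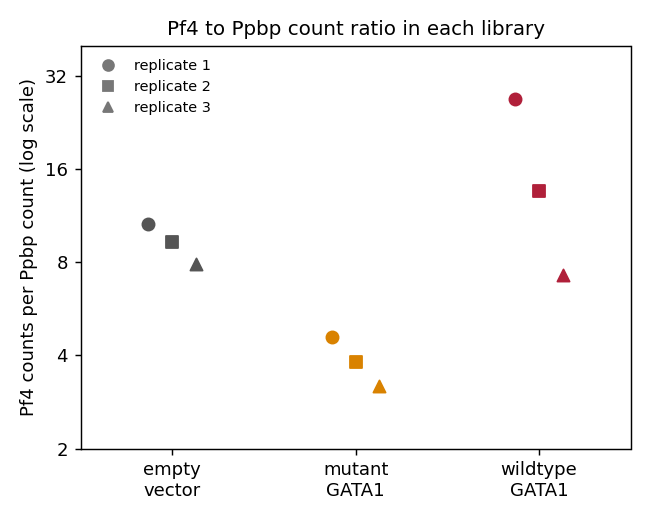
Pf4 counts per Ppbp count in each library, on a log axis, by group; each marker is 1 library. The 3 mutant libraries lie between 3.18 and 4.60, below all other libraries, and the wildtype libraries spread from 7.27 to 27.0.

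The other chemokine genes of this chromosome 5 cluster were nearly silent. Cxcl1, Cxcl2 and Cxcl15 had no count in any library, Cxcl3 had 3 counts and Cxcl5 had 1 count over all 9 libraries. None of the 5 was tested.

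Nrgn encodes neurogranin, a calmodulin-binding protein known from neurons and also found in platelets (chromosome 9, 37544492 to 37552904, minus strand). It stood at 37.6, 40.5 and 45.1 CPM in empty vector replicates 1, 2 and 3, at 34.5, 35.0 and 27.1 CPM with the mutant and at 15.5, 18.6 and 20.1 CPM with the wildtype. The 3 groups did not overlap. The wildtype fall was −1.19 ± 0.15 on the log2 scale (SE; edgeR adjusted p 0.000115), to 44.0% of the empty vector level. The mutant had −0.35 ± 0.15 against the empty vector and was not called (adjusted p 0.372). It was above the wildtype by 0.84 ± 0.15 (adjusted p 0.00188), and this call and that of the wildtype fall held in each alternative.

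Siae, a sialic acid esterase gene, lies 2794 bases from Nrgn and was lower with the wildtype as well. It fell by 0.91 ± 0.11 on the log2 scale with the wildtype (SE; edgeR adjusted p 8.36e-05) and was higher with the mutant than with the wildtype by 0.76 ± 0.11 (adjusted p 0.000392). Vsig2, which lies 287 bases from Nrgn on the other side, was not called in any comparison. Among the nearest tested neighbours of the 8 genes, Pf4 and Ppbp, which neighbour each other, were not counted. Of the 14 others, 2 were called for wildtype against empty vector, beside 11.9% of all tested genes lower and 11.4% higher. Besides Siae this was St3gal4, far from Fli1, which rose by 1.63 ± 0.12. For mutant against wildtype 4 of the 14 were called, beside 12.7% of all tested genes lower and 13.2% higher. The libraries keep no strand, so reads where genes overlap cannot be split between them.

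Itga2b and Itgb3 encode the alpha and beta chains of the platelet fibrinogen receptor, integrin alpha-IIb beta-3; the alpha chain is also a surface marker of early blood progenitors. Itga2b (chromosome 11, 102453297 to 102470122, minus strand) stood at 17.2, 19.99 and 20.7 CPM in empty vector replicates 1, 2 and 3. It stood at 16.7, 15.4 and 15.4 CPM with the mutant and at 7.60, 12.6 and 11.1 CPM with the wildtype. The wildtype libraries were all lowest, and wildtype replicate 1 was the lowest of them. The wildtype fall of −0.89 ± 0.19 on the log2 scale (SE; edgeR adjusted p 0.00379) was the smallest of the 6 and held in each alternative.

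The mutant libraries of Itga2b were just below those of the empty vector. The log2 difference of −0.29 ± 0.18 was not called (edgeR adjusted p 0.490; 95% interval −0.72 to 0.15). Itga2b was higher with the mutant than with the wildtype by 0.61 ± 0.19 on the log2 scale (adjusted p 0.0298). This call was lost with mutant replicates 1 and 2 summed (0.0789), without any 1 mutant library (0.111, 0.0710 and 0.0552 for replicates 1, 2 and 3) and without wildtype replicate 1 (0.139), where the difference was 0.41; the alternatives ran from 0.00557 to 0.139.

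Itgb3 (chromosome 11, 104608000 to 104670476, plus strand) was less abundant, at 4.40, 6.15 and 7.60 CPM in empty vector replicates 1, 2 and 3. It stood at 3.45, 4.70 and 3.31 CPM with the mutant and at 2.40, 1.83 and 2.28 CPM with the wildtype. The wildtype libraries lay below all others, while the mutant and empty vector libraries overlapped. Its wildtype fall was −1.47 ± 0.26 on the log2 scale (SE; edgeR adjusted p 0.00137) and held in each alternative that tested it.

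With the mutant, Itgb3 had −0.67 ± 0.24 against the empty vector and was not called (edgeR adjusted p 0.343). It was higher with the mutant than with the wildtype by 0.81 ± 0.27 (adjusted p 0.0433), the weakest of the 5 calls. With the replicate number as a block the adjusted p was 0.0670 in all 9 libraries and 0.0231 in the 6 libraries compared. The call was also lost with mutant replicates 1 and 2 summed (0.0911). It was lost without empty vector replicate 2 (0.0627), without mutant replicates 1, 2 or 3 (0.0803, 0.166 and 0.0512) and without wildtype replicates 1, 2 or 3 (0.0872, 0.135 and 0.0607), over a range of 0.0213 to 0.166.

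Fli1, the ETS transcription factor of the set (chromosome 9, 32422204 to 32542861, minus strand), had the fewest counts of the tested genes with the empty vector and the mutant: 30, 51 and 32 in empty vector replicates 1, 2 and 3, then 25, 21 and 37 with the mutant and 11, 11 and 15 with the wildtype. In CPM these were 2.20, 3.57 and 2.06, then 1.41, 1.27 and 2.40, and then 0.880, 1.06 and 1.32. The wildtype libraries lay below all empty vector libraries but overlapped those of the mutant. The fall with the wildtype was −1.26 ± 0.36 on the log2 scale (SE; edgeR adjusted p 0.0224). It was lost without empty vector replicate 2 (0.119), the highest library, and without wildtype replicates 1 or 2 (0.101 and 0.0630), over a range of 0.00428 to 0.119. The mutant had −0.63 ± 0.32 against the empty vector (adjusted p 0.420) and 0.63 ± 0.37 against the wildtype (adjusted p 0.226), and neither was called.

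**Figure D3:**
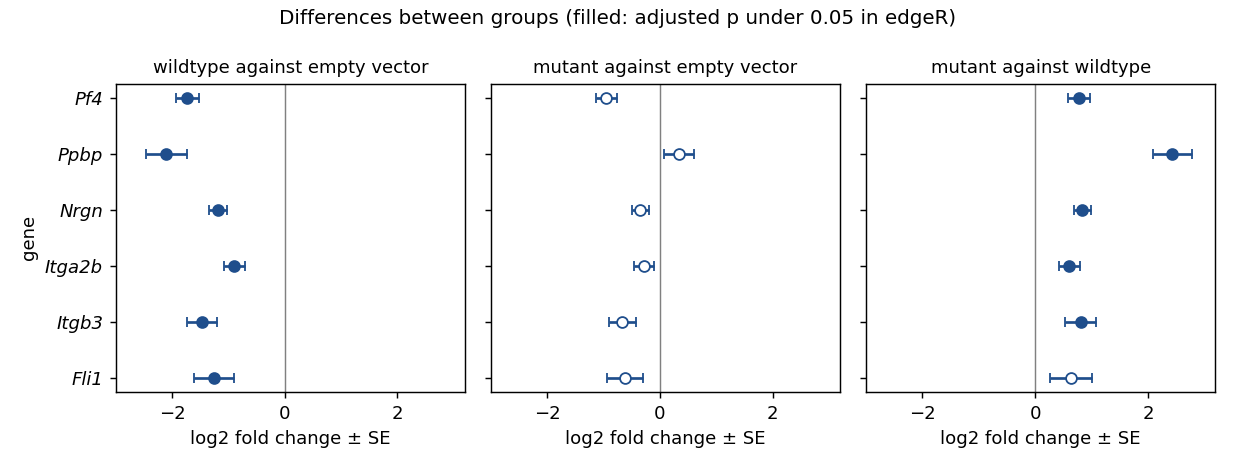
Log2 fold change with its SE for the 6 tested genes in each of the 3 comparisons; filled points had an adjusted p under 0.05 in edgeR. All 6 are filled and below 0 for wildtype against empty vector, none is filled for mutant against empty vector, and 5 are filled and above 0 for mutant against wildtype.

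Gp1bb encodes the beta chain of glycoprotein Ib, the platelet receptor for von Willebrand factor, and Vwf encodes that ligand. Gp1bb (chromosome 16, 18620317 to 18622403, minus strand) and Vwf (chromosome 6, 125546774 to 125686679, plus strand) had 0 counts in all 9 libraries. A count of 0 allows up to 3 counts over a group, or 0.0690 CPM in empty vector libraries, 0.0604 CPM in mutant libraries and 0.0875 CPM in wildtype libraries, counting error only. Most of the Gp1bb gene lies within Sept5 on the same strand in GENCODE, and Sept5 had 1 count in all. How reads that fit both genes were counted is not given in the sources used here, so the 0 of Gp1bb may not be its true level.

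The partners of Gp1bb in the receptor complex were present. Gp5 fell with the wildtype, from 35.5 ± 8.18 to 16.6 ± 2.79 CPM (SD, n = 3), a log2 fold change of −1.10 ± 0.20 (SE) with an edgeR adjusted p of 0.00145. Gp1ba, the ligand-binding chain, had −0.50 ± 0.25 (adjusted p 0.168) and Gp9 had 0.33 ± 0.24 (adjusted p 0.341), and neither was called. With the mutant against the empty vector none of the 3 was called, and their log2 differences were −0.39 ± 0.19 for Gp5, −0.08 ± 0.24 for Gp1ba and 0.18 ± 0.23 for Gp9.

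Levels of different genes can be compared only per length, here as CPM per kilobase of merged GENCODE exons. With the empty vector Pf4 was highest at 34.6 ± 6.88, followed by Nrgn at 28.3 ± 2.60 (SD, n = 3), and these overlapped. Itga2b at 3.54 ± 0.345, Ppbp at 2.47 ± 0.196 and Itgb3 at 1.03 ± 0.271 came next without overlap, and Fli1 at 0.748 ± 0.238 overlapped Itgb3. The receptor's alpha chain was thus above its beta chain per length in every library. With the mutant, Nrgn (22.2 ± 3.02) and Pf4 (17.9 ± 1.90) overlapped, as did Ppbp (3.12 ± 0.244) and Itga2b (2.90 ± 0.142), while Itgb3 was at 0.647 ± 0.1299 and Fli1 at 0.486 ± 0.177. With the wildtype, Ppbp was at 0.579 ± 0.337, below Itga2b as with the empty vector, and it overlapped Itgb3 at 0.368 ± 0.0511. The scale assumes reads spread over the whole transcript.

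Beyond these genes, 122 genes in 7 lists of platelet and megakaryocyte biology were examined, of which 71 were tested. With the wildtype, 24 of the 71 fell and 5 rose, beside 11.9% of all tested genes lower and 11.4% higher, with a median log2 fold change of −0.31. With the mutant against the empty vector, edgeR called 0 in either direction, beside 0.0601% of all tested genes lower and 0.210% higher. At an unadjusted p under 0.05, 8 of the 71 were lower and 7 higher, beside 785 and 499 of the 9978 tested genes. DESeq2 called 2 of the 71 lower, the granule genes Srgn and Rab27b, beside 0.391% of all tested genes. Without empty vector replicate 3, edgeR called 4 lower and 2 higher, beside 610 lower and 227 higher over all tested genes. With the mutant against the wildtype, 26 were higher and 5 lower, beside 13.2% and 12.7% of all tested genes, and the 26 became 17 without mutant replicate 1 or wildtype replicate 1.

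Among platelet receptors, 5 of 22 were tested. With the wildtype 2 fell, beside 11.9% of all tested genes, and 3 were not called. Besides Gp5 this was P2rx1, an ATP-gated cation channel of platelets, with −1.86 ± 0.28 on the log2 scale (SE), from 11.9 to 3.29 CPM. P2rx1 and Gp5 were also the 2 receptors that were higher with the mutant than with the wildtype, by 1.23 ± 0.28 and 0.71 ± 0.20. Of all tested genes, 13.2% were higher in this comparison. Without wildtype replicate 3, 4 receptors fell, as did 1641 of all tested genes. Without mutant replicates 1 or 2 or wildtype replicate 1, and with mutant replicates 1 and 2 summed, 1 receptor was higher with the mutant. Among the untested receptors, Clec1b, P2ry12 and Selp had no count in any library.

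Of 20 granule and secretion genes, 11 were tested, and 5 fell and 0 rose with the wildtype in edgeR, as in DESeq2. Over all tested genes 11.9% fell and 11.4% rose in edgeR, and 12.1% and 13.9% in DESeq2. At an unadjusted p under 0.05, 6 fell and 0 rose, beside 18.8% and 17.6% of all tested genes. Rab27b, a GTPase of dense granules, had −1.77 ± 0.25 on the log2 scale (SE), Timp3, an inhibitor of metalloproteinases, −1.48 ± 0.20, and Nbeal2, which alpha granules need to form, −1.30 ± 0.22. In all 4 were higher with the mutant than with the wildtype, beside 13.2% of all tested genes. These 4 became 2 without mutant replicates 1 or 2 or with these replicates summed. Timp3 and Nbeal2 were higher with the mutant than with the wildtype by 1.66 ± 0.20 and 1.66 ± 0.23. Of the 20 genes, 7 had no count in any library: Thbs1, Sparc, Clu, F5, F13a1, Mmrn1 and Pdgfb. Srgn and Tgfb1 of the same list stood at 58.9 and 10.6 CPM with the empty vector.

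Of 23 signalling genes of platelets, 17 were tested, and 7 fell and 0 rose with the wildtype in edgeR, as in DESeq2. Over all tested genes 11.9% fell and 11.4% rose in edgeR, and 12.1% and 13.9% in DESeq2. At an unadjusted p under 0.05, 9 fell and 0 rose, beside 18.8% and 17.6% of all tested genes. Lcp2, the adaptor SLP-76, fell from 65.8 to 13.4 CPM, a log2 fold change of −2.29 ± 0.15 (SE). The adaptor Lat had −2.05 ± 0.27 and Fyb, which binds SLP-76, −0.91 ± 0.13. With the mutant against the wildtype 8 were higher, beside 13.2% of all tested genes, with Lcp2 at 2.14 ± 0.15 and Fyb at 0.82 ± 0.13. The 8 became 5 without mutant replicates 1 or 3 or with mutant replicates 1 and 2 summed, and 4 without wildtype replicate 1. These adaptors also serve mast cells and T cells.

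The cytoskeleton list moved both ways with the wildtype: of 18 genes 13 were tested, 5 fell and 2 rose. Of all tested genes, 11.9% fell and 11.4% rose. Gsn, the actin-severing protein gelsolin, had −2.57 ± 0.20 on the log2 scale (SE). Tubb1, the beta-tubulin of platelets and also of erythroid cells in mice, went the other way, with 0, 1 and 0 counts in empty vector replicates 1, 2 and 3, 1, 0 and 1 with the mutant and 524, 424 and 331 with the wildtype. Tuba4a, an alpha-tubulin, rose by 1.22 ± 0.14. The mutant was above the wildtype for Gsn by 3.15 ± 0.20, and below it for Tuba4a, with a log2 difference of −1.06 ± 0.14.

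Of 22 transcription factors of the lineage, 19 were tested, and 3 rose and 3 fell with the wildtype, beside 11.4% of all tested genes higher and 11.9% lower. The falls became 1 without empty vector replicate 2 or wildtype replicates 1 or 2. Gata2, a factor of early progenitors that GATA1 is known to silence, had −1.67 ± 0.14 on the log2 scale (SE). Mafk, the small partner of NF-E2, rose by 0.99 ± 0.11 and Ldb1, a bridging cofactor of GATA1 complexes, by 0.95 ± 0.14. With the mutant against the wildtype, Gata2 was higher by 1.48 ± 0.14 and Mafk had −0.74 ± 0.11. Runx1, which megakaryocytes need, and Nfe2, which platelet release needs, were at 40.4 and 280.5 CPM with the empty vector and had −0.19 ± 0.12 and 0.08 ± 0.14 with the wildtype, without a call. Ets1, the ETS gene next to Fli1 in the genome, had no count.

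Of 14 integrin subunits other than Itga2b and Itgb3, 6 were tested, and 2 fell and 0 rose with the wildtype, in edgeR as in DESeq2. Over all tested genes 11.9% fell and 11.4% rose in edgeR, and 12.1% and 13.9% in DESeq2. At an unadjusted p under 0.05, 3 fell and 0 rose, beside 18.8% and 17.6% of all tested genes. Itgal, a leukocyte alpha chain, had −2.10 ± 0.26 on the log2 scale (SE) and Itgb1 −0.57 ± 0.15, while Itgb2 had −0.26 ± 0.11 and was not called. Itgav, the other alpha chain that pairs with Itgb3, stood at 10.4 CPM with the empty vector and 11.01 CPM with the wildtype and was not called (0.08 ± 0.27). Itgal was higher with the mutant than with the wildtype by 1.98 ± 0.26, and Itgb1 had 0.35 ± 0.15 and was not called (edgeR adjusted p 0.106). The 2 falls became 1 without empty vector replicate 2 or wildtype replicate 2, and without wildtype replicate 3 the integrins higher with the mutant became 2.

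**Figure D4:**
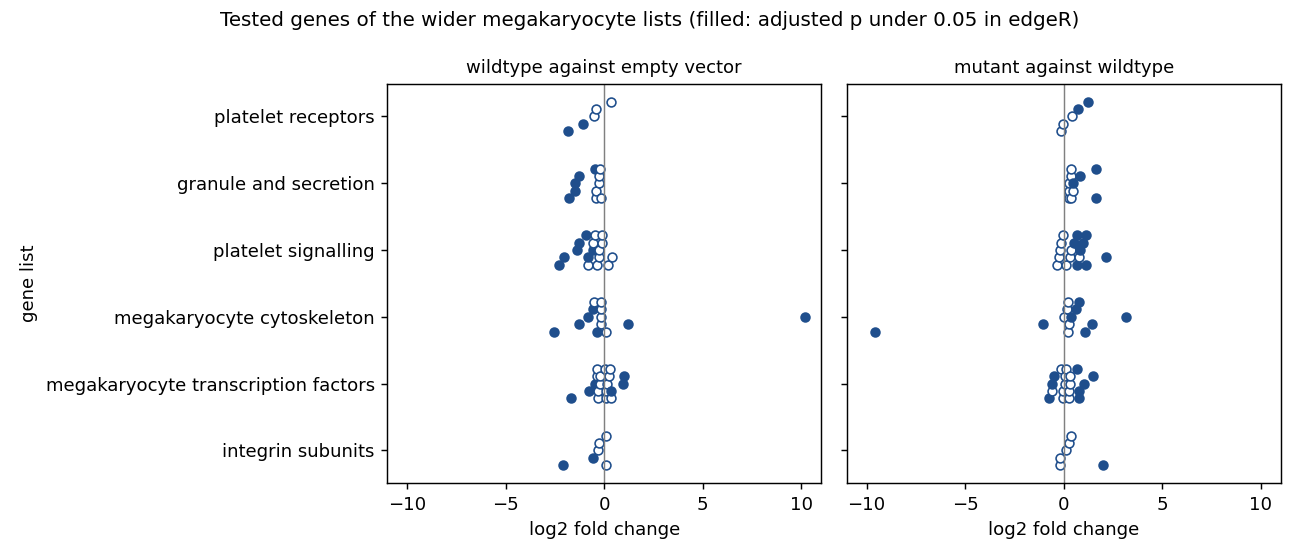
Log2 fold change of each tested gene of 6 wider lists for wildtype against empty vector and for mutant against wildtype; filled points had an adjusted p under 0.05 in edgeR, and the vertical offset only separates points. Receptor, granule and signalling genes that were called are below 0 on the left and above 0 on the right, and the far point of the cytoskeleton list is Tubb1.

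Markers of other blood cells were lower with the wildtype too. Of 12 mast cell and basophil markers 5 were tested, and 4 fell with the wildtype and 2, Cpa3 and Ms4a2, with the mutant, against the empty vector (11.9% and 0.0601% of all tested genes); their summed level was 121 to 157 CPM in empty vector libraries, 79.8 to 86.6 CPM in mutant libraries and 30.5 to 37.7 CPM in wildtype libraries. Mcpt8, Mcpt4, Tpsb2 and Mrgprb2 had no count in any group. Of 12 granulocyte and monocyte markers 4 were tested, and 3 fell with the wildtype (11.9% of all tested genes), with sums of 9.23 to 11.4, 8.25 to 10.003 and 2.20 to 2.48 CPM in the same order; Elane, Ctsg, S100a8, S100a9 and Ly6c2 had no count in any group. The summed level of 16 megakaryocyte and platelet markers, which include the 8 genes and Tubb1, was 131 to 153 CPM in empty vector libraries, 99.0 to 118 CPM in mutant libraries and 102 to 115 CPM in wildtype libraries. Tubb1 alone made up 37.3 ± 7.13 CPM (SD, n = 3) of the wildtype sum, and the other 15 markers summed to 60.6 to 74.0 CPM there, against 131 to 153 and 98.98 to 118 CPM in the other groups. Endothelial markers, which could also supply Vwf, summed to at most 0.559 CPM. The part of such cells in the results was not tested.

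By likeness of log2 CPM over the 9 libraries, which share their groups, Nrgn was closest to Lgals9, a galectin gene, with a Pearson correlation of 0.99. Pf4 was closest to Npl (0.98), Ppbp to Ppp1r21 (0.98), Itga2b to Abhd14b (0.98), Fli1 to Zkscan8 (0.97) and Itgb3 to Naa35 (0.95). They were chosen on these libraries, so their values are a description. Lgals9 stood at 835 ± 47.7 CPM with the empty vector and 334 ± 44.8 CPM with the wildtype (SD, n = 3). Ppp1r21 was near its empty vector level with the mutant, at 15.4 ± 0.768 against 15.6 ± 0.623 CPM. The mutant libraries of Ppbp lay above those of the empty vector.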

How the data were processed

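Per the labels' protocols, Smart-seq2 and Nextera indexing turned total RNA into libraries; the method keeps no strand. The authors deposited raw counts of reads per gene, in 27998 mouse rows and 1 human row (GATA1). STAR and the builds GRCm38.p4 and hg19 are named in the submitters' processing notes; no source used here gives the counting tool or annotation. The human row was left out of the fits. The test was edgeR's (version 4.0.16, under R 4.3.3): TMM factors, filterByExpr, and a quasi-likelihood model with 1 mean per group over 9 libraries, giving 9978 tested genes. P-values were adjusted over all tested genes by the Benjamini-Hochberg method, and called genes had an adjusted p under 0.05. DESeq2 1.42.0 was an alternative. The SE of a log2 fold change is its size over the square root of the F-statistic; intervals (95%) use 6 degrees of freedom. CPM use TMM-scaled library sizes, those of human GATA1 library totals; log2 CPM for likeness used a prior count of 2. Totals ran from 11364358 to 17289307 counts, and replicates in every group varied by more than counting error; floors of 3 counts cover counting error only.

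Exon lengths and coordinates are those of GENCODE M21 (GRCm38), promoters those of RefSeq (GRCm38.p6). The test was checked on simulated counts. The series calls the replicates biological and says no more of separate cultures, so p-values reflect only how these libraries vary.

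The 8 genes, the lists and the tests were chosen with earlier results of these data known. The rule for named genes took the 8 genes, from each wider list the 3 tested genes with the smallest unadjusted p for wildtype against empty vector and the 2 for mutant against wildtype, the most alike gene for each tested gene, and the nearest tested neighbours. Other genes named were chosen for their role or after their values were seen. Between mutant and wildtype libraries of the same number, deviations from the group means correlated at 0.17, 0.29 and 0.53 for numbers 1, 2 and 3. Deviations within a group sum to 0, so these values are not independent. Libraries of different numbers were not compared, so the values cannot show that the numbers mark pairs. The labels give no pairing, and a replicate block rests on the numbers alone. The correlations with the empty vector were negative for every number. No groups were taken as paired in the main fits, but the block over all 9 libraries also matched the empty vector by number.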

Additional observations from a re-analysis of the deposited data

How the results depend on the processing

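The 18 alternatives changed the normalization, filter, tool, libraries fitted or pairing, and 9 of them left out 1 library each. The 6 tested genes kept the direction of every difference in each alternative that tested them. With the filter of 5 CPM in 3 libraries, only 3 of the 6 genes were tested, and 3 were lower for wildtype against empty vector and 3 higher for mutant against wildtype. For mutant against empty vector, 1 gene was lower with no low-count filter and 1 in DESeq2, which was Pf4 in both, and 0 to 1 when single libraries were left out. For mutant against wildtype, 3 were higher with mutant replicates 1 and 2 summed, and 2 to 5 when single libraries were left out; for wildtype against empty vector 5 to 6 were lower. The causes were not tested.

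With the replicate block, 4 genes were higher for mutant against wildtype over all 9 libraries and 5 over the 6 compared, a fit added after seeing the data. That fit called 2323 genes higher and 2417 lower over all tested genes, against 1313 and 1267, and 10 granule genes and 3 integrins higher. The block changed no other call of the 6 genes. For mutant against empty vector, calls over all genes went from 6 lower and 21 higher to 296 and 119 with no low-count filter, 39 and 63 in DESeq2, 2 and 12 with the replicate block, 2 and 9 with mutant replicates 1 and 2 summed, and 610 and 227 without empty vector replicate 3. For mutant against wildtype, summing those replicates left 772 lower and 779 higher. Library totals alone put the median of all genes at −0.13 on the log2 scale for wildtype against empty vector and at 0.10 for mutant against wildtype, from −0.04 and −0.01, with 7 granule genes higher in the latter. Fli1 and Ppbp had the fewest counts of the 6 tested genes, and for Vwf, at 0 in all libraries, no difference was detectable at this depth.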
